A study of Homo sapiens with 6 samples.

Results

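The 9 genes described here are regulators of the cell cycle, most of which restrain its G1 phase, and a neighbour on chromosome 9. They are the INK4 inhibitors CDKN2A, CDKN2B, CDKN2C and CDKN2D, the CIP/KIP inhibitors CDKN1B and CDKN1C, the CDK phosphatase CDKN3, the retinoblastoma gene RB1, and MTAP, which lies beside CDKN2A. They were taken by gene symbol from a table of 58735 genes, and all 9 were found once. The cells were HT1080, a fibrosarcoma line of human origin. The table held 3 libraries of cells labelled as a knockout of the adhesion receptor GPR56, gene symbol ADGRG1 (KO), and 3 libraries of wild-type (WT) cells. Both genotypes carry the name of the solvent DMSO in their sample descriptions, with no dose or time, and were grown in DMEM with fetal bovine serum. The labels do not say how the knockout was made, how many KO clones were used or whether each sample was a culture of its own. The p-values therefore rest on a spread among samples that may be technical.

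INK4 proteins bind the kinases CDK4 and CDK6 and keep them from pairing with D-type cyclins, while CIP/KIP proteins bind complexes of cyclins with CDKs, above all CDK2. The retinoblastoma protein, encoded by RB1, holds E2F transcription factors inactive until these kinases phosphorylate it, after which genes of DNA replication are transcribed. MTAP is a metabolic enzyme, not a cell cycle regulator. It recycles methylthioadenosine, a by-product of polyamine synthesis, to methionine, and it is often lost together with CDKN2A in human tumours. HT1080 is known as a line that lacks CDKN2A and MTAP. The present data are RNA levels, and the copy number of the locus was not tested.

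Between 16955111 and 17276269 reads were recovered from each KO library, and between 16410352 and 16461752 from each WT library. ADGRG1 stood at 2.68, 2.54 and 2.58 FPKM in the KO libraries, against 6.61, 6.07 and 6.87 FPKM in the WT libraries. It was therefore lower in all 3 KO libraries and still detected in them. FPKM are reads scaled to gene length and library size. Levels can be compared between genes only roughly, because FPKM keep the trend with GC content described below. Of 12 mesenchymal markers 8 passed the expression filter, among them VIM, FN1 and SPARC, but COL1A2, THY1 and FAP were near 0. The summed level of the 12 was 1720 to 1805 FPKM in KO and 1433 to 1469 FPKM in WT. The summed level of 8 epithelial markers was 0.901 to 1.005 FPKM in KO and 0.345 to 0.410 FPKM in WT, with CDH1, KRT14 and CLDN3 at 0 in every library. Most of that sum was the single gene CLDN4, at 0.930, 0.878 and 0.909 FPKM in KO and 0.327, 0.281 and 0.384 FPKM in WT. The sum of 10 blood, endothelial and liver markers was 1.56 to 1.66 FPKM in KO and 0.387 to 0.678 FPKM in WT, with PTPRC and ALB at 0. The part of such differences in the results was not tested.

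The same 5 of the 9 genes were expressed above the filter in both genotypes. CDKN2C, CDKN2D, CDKN1B, CDKN3 and RB1 had between 7.23 and 22.0 FPKM in every library. CDKN1C and MTAP were detected at low levels, below 0.5 FPKM, and CDKN2A and CDKN2B had no reads at all. Only the 5 expressed genes reached the filter for testing, a mean of at least 1 FPKM over the 6 libraries. Differences between genotypes were tested with limma on log2(FPKM + 1), with p-values adjusted over all 12000 genes tested and a threshold of 0.05. By this test 1 of the 5, CDKN3, differed between genotypes, and it was lower in KO. Of all genes tested 43.4% were called in either direction with 21.0% higher and 22.4% lower in KO, so the share among the 5 was not above that background. At an unadjusted p under 0.05 there were 3 of the 5, against 6214 of the 12000 genes.

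**Figure D1:**
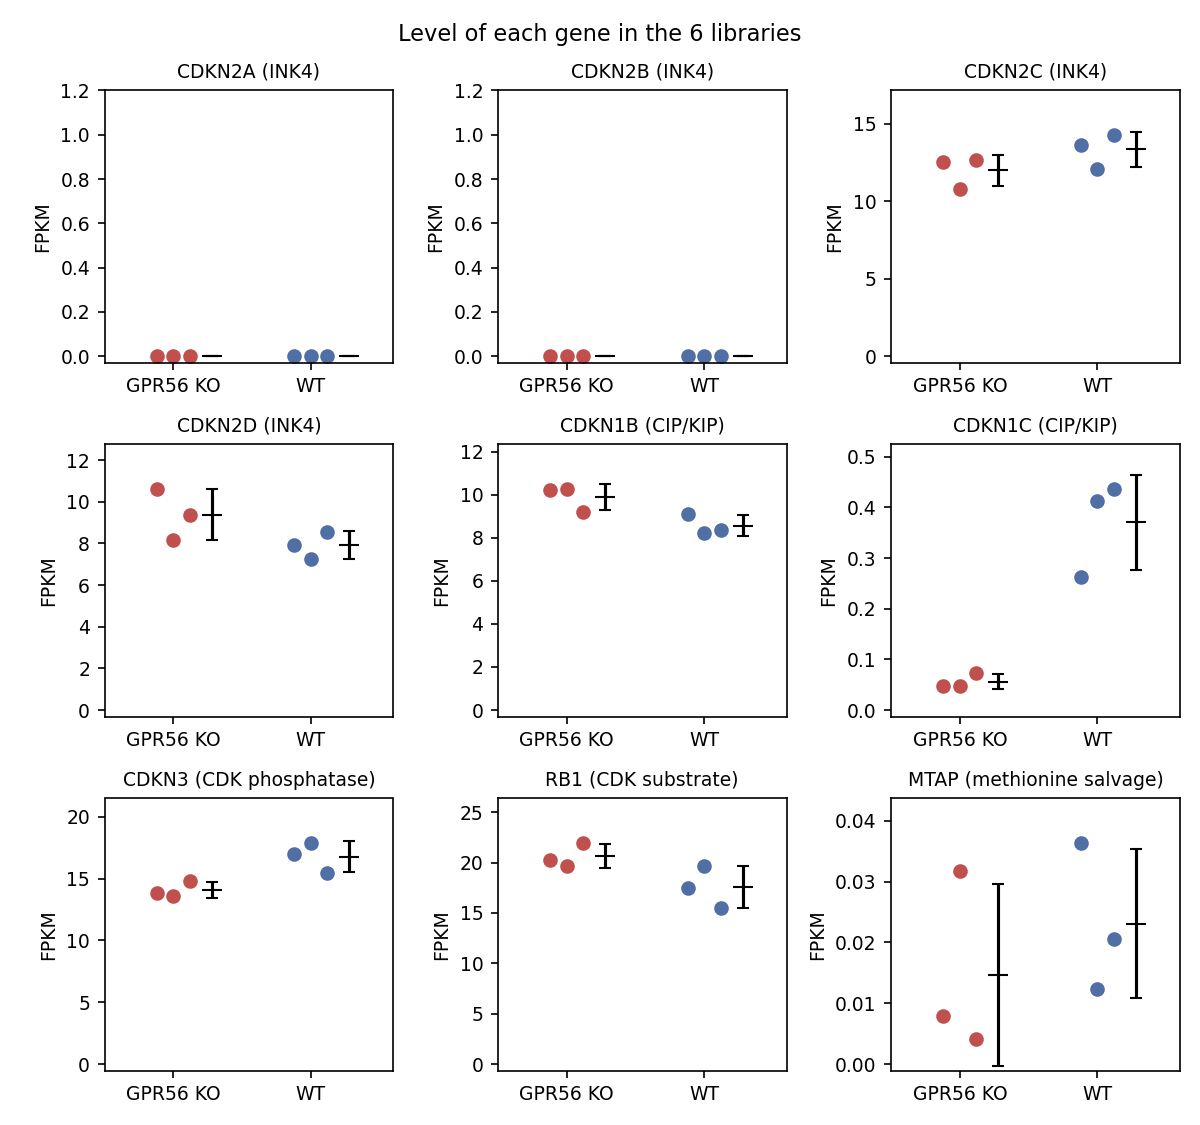
FPKM (vertical axes, each from 0) of the 9 genes in the 3 GPR56 KO libraries (red, left) and the 3 WT libraries (blue, right). Points are libraries, and the black bars give the mean and SD. CDKN2A and CDKN2B lie at 0 throughout, CDKN1C reaches at most 0.0729 FPKM in KO and at least 0.262 FPKM in WT, and the 5 expressed genes differ little between genotypes.

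CDKN2A encodes p16, an INK4 inhibitor, and in another reading frame ARF, which stabilises p53. It lies on the minus strand of chromosome 9, positions 21967753 to 21995301 on GRCh38, and had 0 reads in each of the 3 KO libraries and 0 in each of the 3 WT libraries. CDKN2B, which encodes the INK4 inhibitor p15 and is induced by TGF-beta in many cells, lies next to it on the same strand at 22002903 to 22009363. It too had 0 reads in all KO and all WT libraries. A limit of 3 reads over the libraries of a genotype corresponds to 0.0136 FPKM in KO and 0.0138 FPKM in WT for CDKN2A, and to 0.0145 FPKM in KO and 0.0147 FPKM in WT for CDKN2B. These limits cover counting error only. Neither gene allows a comparison between genotypes, and no fold change is given.

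MTAP, on the plus strand at 21802543 to 21937651, had 2, 8 and 1 reads in the KO libraries, against 9, 3 and 5 reads in the WT libraries. These few reads spread over an annotated exon length of 14617 bases, so its level was at most 0.0318 FPKM in KO and 0.0364 FPKM in WT, and the genotypes overlapped. The ratio of KO to WT reads per library size was 0.637, with an exact 95% counting interval of 0.270 to 1.44 (two-sided exact permutation p = 0.5, n = 3 each). Without KO 2, which held 8 of the 11 KO reads, the ratio was 0.262 (0.0493 to 0.907). A difference in MTAP was not detectable over the 6 libraries at this depth. Exonic bases of MTAP are shared with AL359922.1, ERVFRD-3 and AL359922.2, none of which had a read.

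The silence was not shared by every annotated gene of the locus. CDKN2B-AS1, a long noncoding RNA transcribed from the opposite strand across CDKN2B, had 77, 103 and 59 reads in the KO libraries, against 76, 74 and 53 reads in the WT libraries. The genotypes overlapped, and the ratio of KO to WT was 1.16 (exact 95% counting interval 0.958 to 1.41). With each library left out in turn, the ratio ranged from 0.996 without KO 2, the highest library, to 1.30 without KO 3 (1.05 to 1.59). Of CDKN2A's exonic bases 7.88% are shared with CDKN2B-AS1, and none of CDKN2B's are. The strand setting of the authors' counting is not given in the sources used here, so reads over such shared bases cannot be assigned with certainty. Of the 11 annotated genes from MTAP to CDKN2B, 7 had no read in any library. Besides CDKN2B-AS1 and MTAP, the pseudogene TUBB8P1 had 17 reads over the KO libraries and 5 over the WT libraries, and CDKN2A-DT had 0 and 1.

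Expression around the locus was one-sided. Within 3 Mb of the interval from MTAP to CDKN2B the annotation holds 106 genes. Of these, 75 lie on the telomeric side, 11 in the interval and 20 on the centromeric side. A mean of 1 FPKM was reached by 13 of the 106, all on the telomeric side, which holds more genes. The nearest of them was MIR31HG, the host RNA of miR-31, at 243 kb from MTAP. It averaged 1.47 ± 0.31 FPKM in KO and 1.52 ± 0.50 FPKM in WT (SD, n = 3 each). KLHL9, an adaptor of a CUL3 ubiquitin ligase and the nearest protein-coding gene above that level, was chosen with its values in view. It averaged 11.7 ± 0.7 FPKM in KO and 12.3 ± 1.3 FPKM in WT (limma log2 fold change −0.06, adjusted p = 0.608). With each library's trend with GC content and gene length removed, the KLHL9 value turned to 0.24 and was called higher (adjusted p = 0.00846). On the centromeric side DMRTA1 had 135 reads over the KO libraries and 128 over the WT libraries, a mean under the filter. The first gene beyond the filter there was TUSC1, at 3667 kb, with 7.55 ± 0.46 FPKM in KO and 7.91 ± 1.06 FPKM in WT. Between MIR31HG and TUSC1 the annotation holds 35 genes, of which 7 code for protein and 22 had no read in any library.

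**Figure D2:**
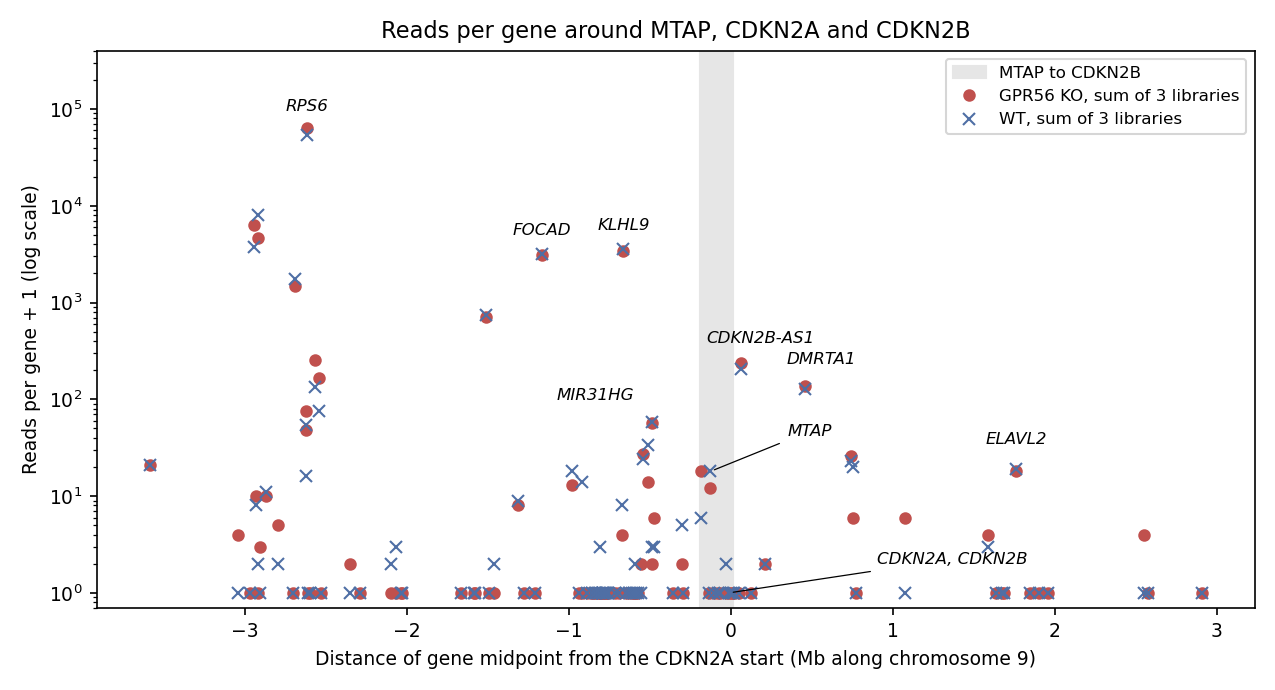
Reads per annotated gene, summed over the 3 GPR56 KO libraries (red circles) and the 3 WT libraries (blue crosses), plus 1, on a log axis, against the distance in Mb of the gene's midpoint from the CDKN2A start. The grey band runs from MTAP to CDKN2B. CDKN2A and CDKN2B lie at 0 reads, MTAP had 11 reads in KO and 17 in WT, and every gene at a mean of 1 FPKM or more lies to the left of the band.

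CDKN2C (chromosome 1, 50960745 to 50974633, plus strand), which encodes the INK4 inhibitor p18, was the INK4 gene with the highest level. It stood at 12.5, 10.8 and 12.6 FPKM in the KO libraries, against 13.6, 12.1 and 14.3 FPKM in the WT libraries. The ranges overlapped, KO 1 and KO 3 lying above WT 2. The log2 fold change was −0.14 (SE 0.09, 95% interval −0.35 to 0.06, limma adjusted p = 0.222). CDKN2D (chromosome 19, 10566462 to 10569059, minus strand), which encodes the INK4 inhibitor p19, stood at 10.6, 8.16 and 9.38 FPKM in the KO libraries, against 7.94, 7.23 and 8.56 FPKM in the WT libraries. KO 2 lay below WT 3, so the genotypes overlapped here too. Its log2 fold change was 0.22 (SE 0.10, 95% interval −0.02 to 0.46, limma adjusted p = 0.125). The median log2 fold change of the 727 tested genes of chromosome 19, which carries CDKN2D, was 0.19.

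CDKN1B (chromosome 12, 12715058 to 12722371, plus strand) encodes p27, a CIP/KIP inhibitor whose protein is known to be controlled mostly by translation and degradation. Its mRNA stood at 10.2, 10.3 and 9.19 FPKM in the KO libraries, against 9.10, 8.23 and 8.38 FPKM in the WT libraries. All KO libraries lay above all WT libraries, though KO 3 and WT 1 differed by less than 0.1 FPKM. Such a separation in either direction was found for 54.7% of all genes tested. The log2 fold change was 0.19 (SE 0.07, 95% interval 0.02 to 0.35, limma adjusted p = 0.0644), which did not pass the threshold. It passed under quantile normalization (adjusted p = 0.0480) and without KO 3 (adjusted p = 0.0495), in a range of 0.0480 to 0.195 over all alternatives.

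CDKN1C (chromosome 11, 2883213 to 2885773, minus strand) encodes p57, a CIP/KIP inhibitor expressed from the maternal allele of an imprinted domain. It had 2, 2 and 3 reads in the KO libraries, against 11, 17 and 18 reads in the WT libraries. As levels these were 0.0470, 0.0469 and 0.0729 FPKM in KO and 0.262, 0.412 and 0.437 FPKM in WT, without overlap. Of the genes tested, which do not include CDKN1C, 54.7% showed such a separation in either direction. The ratio of KO to WT reads per library size was 0.150, with an exact 95% counting interval of 0.0571 to 0.334, and it ranged from 0.127 to 0.165 when each library was left out in turn. The two-sided exact permutation test gave p = 0.1 (n = 3 each), the smallest that 3 against 3 libraries allow. Its mean lay under the filter. With no filter, limma gave a difference of −0.37 on log2(FPKM + 1) and an adjusted p of 0.0134, in a fit calling 4974 of 31298 genes. That p-value rests on the same 7 KO and 46 WT reads. Limma-voom on the recovered reads, for genes averaging 5 or more of them, gave −2.49 (SE 0.56, adjusted p = 0.00256), a fit in which 41.6% of genes were called. CDKN1C reached that average only through its WT reads, and this fit was chosen after seeing the data, so its p-value adds no support. The level was far below that of CDKN1B in every library.

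Genes near CDKN1C in its domain differed among themselves. SLC22A18, a transporter gene at 13.9 kb from CDKN1C, stood at 2.14, 1.72 and 2.59 FPKM in the KO libraries, against 0.678, 0.915 and 0.554 FPKM in the WT libraries (limma adjusted p = 0.00226). It was higher in all KO libraries, a separation that 54.7% of all genes tested showed in either direction. SLC22A18 stood below 1 FPKM in every WT library, so it passed the filter only through KO. PHLDA2, an imprinted growth regulator, averaged 188.0 ± 27.4 FPKM in KO and 162.8 ± 9.9 FPKM in WT (adjusted p = 0.185), and the histone chaperone gene NAP1L4 42.7 ± 0.9 FPKM in KO and 39.8 ± 1.5 FPKM in WT (adjusted p = 0.200). KCNQ1OT1, the noncoding RNA whose transcription is known to silence CDKN1C on the paternal allele, had 77, 51 and 39 reads in the KO libraries, against 101, 92 and 82 reads in the WT libraries. Its level was too low to be tested, and the genotypes did not overlap.

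The third CIP/KIP gene, CDKN1A, a target of p53 that encodes p21, was by far the most abundant of the family. It stood at 142.7, 143.5 and 139.7 FPKM in the KO libraries, against 60.0, 55.7 and 70.5 FPKM in the WT libraries (limma log2 fold change 1.19, SE 0.09, adjusted p = 0.000138).

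CDKN3 (chromosome 14, 54396849 to 54420218, plus strand) encodes a dual-specificity phosphatase that removes the activating phosphate from CDK2, and its mRNA is known to peak in late G2 and mitosis. It stood at 13.9, 13.6 and 14.8 FPKM in the KO libraries, against 17.0, 17.9 and 15.4 FPKM in the WT libraries. All KO libraries lay below all WT libraries, a separation that 54.7% of all genes tested showed in either direction. The closest were KO 3 and WT 3. The mean was 14.1 ± 0.6 FPKM in KO and 16.8 ± 1.2 FPKM in WT (SD, n = 3 each), a ratio of 0.842. The log2 fold change was −0.23 (SE 0.07, 95% interval −0.40 to −0.06, limma adjusted p = 0.0352). This call was lost without KO 1 (adjusted p = 0.0955), KO 2 (0.121), WT 1 (0.111) or WT 2 (0.0846), with no filter (0.0683), and by limma-voom for genes averaging 5 or more reads (0.0519), with adjusted p from 0.0140 to 0.128 over all alternatives. In bulk RNA, fewer cells in the phases that express CDKN3 and less of its RNA per cell cannot be told apart.

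Because CDKN3 was the tested gene that passed the threshold, its promoter is printed below beside those of CDKN1B and CDKN2C, which did not pass. Each is the stretch of 250 bases before a RefSeq start on GRCh38.p14, given 5′ to 3′ on the gene's strand. By the gene positions given above, the CDKN1B and CDKN2C stretches lie within the annotated gene. The CDKN3 stretch begins before its annotated gene and runs into it. Capitals mark matches, on either strand, to the CHR element TTTGAA and the CCAAT box, both typical of promoters active in G2 and mitosis, and to the E2F core GGCGGGA.
CDKN3, chr14:54396757-54397006, plus strand: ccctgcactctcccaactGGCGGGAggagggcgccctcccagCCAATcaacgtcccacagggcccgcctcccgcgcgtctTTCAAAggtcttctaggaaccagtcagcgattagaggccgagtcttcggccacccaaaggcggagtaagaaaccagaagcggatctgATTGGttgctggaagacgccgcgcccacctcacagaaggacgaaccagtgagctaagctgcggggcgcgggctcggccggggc
CDKN1B, chr12:12717118-12717367, plus strand: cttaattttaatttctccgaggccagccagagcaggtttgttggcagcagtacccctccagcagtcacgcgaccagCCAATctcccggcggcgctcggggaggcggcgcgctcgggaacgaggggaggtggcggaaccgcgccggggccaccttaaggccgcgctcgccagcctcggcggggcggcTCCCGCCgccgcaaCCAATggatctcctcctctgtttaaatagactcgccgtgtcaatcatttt
CDKN2C, chr1:50968456-50968705, plus strand: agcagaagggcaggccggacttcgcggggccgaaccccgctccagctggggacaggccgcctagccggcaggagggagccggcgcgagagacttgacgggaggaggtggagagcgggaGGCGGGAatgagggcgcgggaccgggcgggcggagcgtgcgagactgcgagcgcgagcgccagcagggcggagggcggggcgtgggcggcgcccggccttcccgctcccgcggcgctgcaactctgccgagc

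The CDKN3 stretch held 1 match to TTTGAA, read on the minus strand as TTCAAA, which begins 170 bases before the start. It also held CCAAT 208 bases before the start and its minus-strand form ATTGG 83 bases before it, and the E2F core 232 bases before it. CDKN1B had 2 CCAAT boxes, 174 and 50 bases before its start, and the E2F core on the minus strand. The CDKN2C stretch, before the only one of its 3 listed starts with an E2F core match, had that match 132 bases before the start. It was chosen for that match, and another CDKN2C start has a CCAAT box 95 bases before it. Over 35116 listed promoter stretches of the same length, 13.3% held TTTGAA, 32.01% CCAAT, 4.69% both and 13.5% GGCGGGA. The full E2F sites TTTCCCGC, TTTCGCGC, TTTGCCGC and TTTGGCGC, the first of which can overlap GGCGGGA on the other strand, were held by 2.79% and by none of these 3. A match is a description of the letters and not of a factor's binding.

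RB1, on the plus strand of chromosome 13 at 48303726 to 48599436, had the highest level of the 9 genes. It stood at 20.3, 19.6 and 22.0 FPKM in the KO libraries, against 17.5, 19.7 and 15.5 FPKM in the WT libraries. WT 2 lay just above KO 2, so the genotypes overlapped at that point. The log2 fold change was 0.23 (SE 0.09, 95% interval 0.01 to 0.44, limma adjusted p = 0.0862) and did not pass the threshold, though without WT 2 it did (0.31, adjusted p = 0.0254). It also passed by limma-voom on the recovered reads (0.24, adjusted p = 0.0486), where 2 of the 5 expressed genes were called, against 46.3% of all genes tested. Its adjusted p ran from 0.000255 to 0.220 over all alternatives. The 239 tested genes of chromosome 13 had a median log2 fold change of 0.22, with 101 called higher and 17 lower in KO, so the value of RB1 was close to that median. ITM2B, an integral membrane protein gene at 33.4 kb from RB1, moved much further. It stood at 26.0, 24.9 and 28.9 FPKM in the KO libraries, against 13.8, 14.5 and 12.6 FPKM in the WT libraries (log2 fold change 0.91, SE 0.08, limma adjusted p = 0.000218). Genes that lie within RB1 were low and shared no exonic base with it. The receptor gene LPAR6 had 17 reads over the KO libraries and 12 over the WT libraries, and RCBTB2 averaged 0.88 ± 0.14 FPKM in KO and 1.22 ± 0.20 FPKM in WT (adjusted p = 0.125).

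Among genes within 100 kb of the other expressed members, those called lay beside CDKN2D and CDKN3. The cAMP phosphodiesterase gene PDE4A averaged 6.87 ± 0.15 FPKM in KO and 2.80 ± 0.28 FPKM in WT (log2 fold change 1.05, limma adjusted p = 8.9e-05). The choline transporter gene SLC44A2 averaged 7.05 ± 0.20 FPKM in KO and 4.03 ± 0.17 FPKM in WT (0.68, adjusted p = 0.000228), and AP1M2, which encodes a clathrin adaptor subunit, 2.07 ± 0.36 FPKM in KO and 1.04 ± 0.24 FPKM in WT (0.59, adjusted p = 0.00936). KEAP1, KRI1 and ATG4D, also beside CDKN2D, were not called. Beside CDKN3, GMFB averaged 10.1 ± 1.2 FPKM in KO and 14.3 ± 2.4 FPKM in WT (−0.45, adjusted p = 0.0267). That difference was 0.01 with the GC and length trend removed (adjusted p = 0.910). CNIH1 and CGRRF1 were not called. FAF1 beside CDKN2C and CREBL2 beside CDKN1B were not called either. With the GC and length trend removed, KEAP1 (−0.41, adjusted p = 0.00386) and KRI1 (−0.33, adjusted p = 0.00784) were called lower. FAF1 (0.30, adjusted p = 0.0366), CREBL2 (0.28, adjusted p = 0.0492) and CGRRF1 (0.30, adjusted p = 0.0335) were then called higher.

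The libraries differed in a trend with GC content that ran with genotype, and it bore on these genes. How far a library lay from each gene's mean was ranked against GC content. Spearman's rho across genes was 0.47, 0.45 and 0.23 for the KO libraries, against −0.40, −0.63 and −0.02 for the WT libraries, genes not being independent replicates. RB1 and CDKN3 are poor in GC, at 39.3% and 43.0% of transcript bases, against a median of 49.1% over the tested genes, while CDKN2D is rich in GC at 61.4%. With that trend and the trend with gene length removed, RB1 was called higher in KO, at 0.53 on the log2 scale (SE 0.05, limma adjusted p = 0.000255), beside a chromosome 13 median of 0.38. CDKN2C was called lower, at −0.31 (SE 0.07, adjusted p = 0.0133). CDKN3 remained called lower at a smaller size, −0.13 (adjusted p = 0.0492). CDKN2D stood at −0.01 (adjusted p = 0.958) and CDKN1B at 0.15 (adjusted p = 0.146). After this correction 3 of the 5 genes were called, against 43.0% of all genes tested. The removal takes out any difference that runs with GC content or length, whatever its source, and which of these values is nearer the cells' RNA was not tested.

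**Figure D3:**
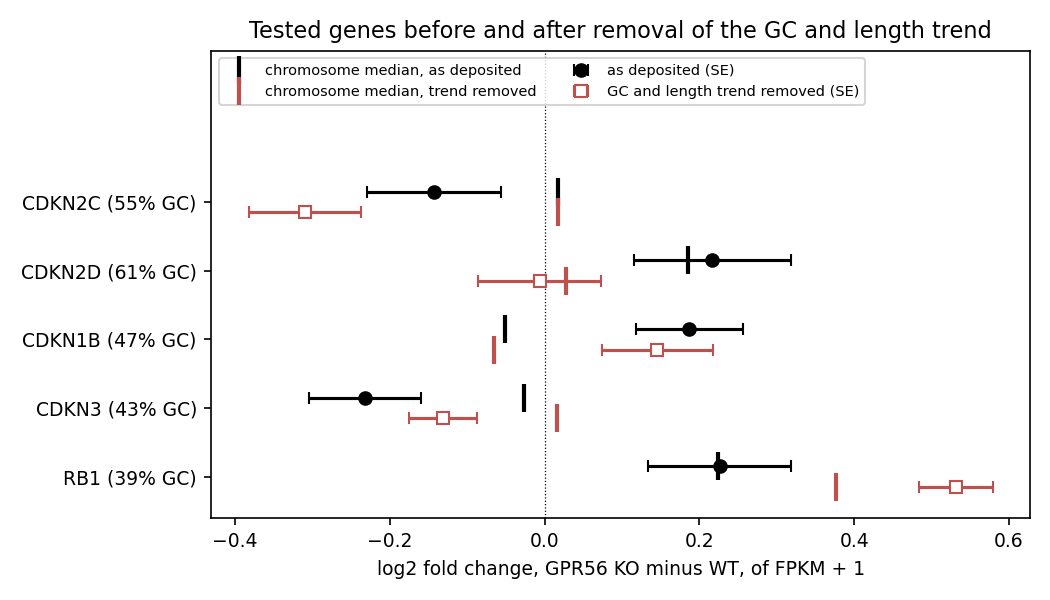
Log2 fold change (KO minus WT, of FPKM + 1) of the 5 tested genes from the values as deposited (black circles) and with the GC and length trend removed (red squares), with SE. Vertical ticks give the median of all tested genes on the same chromosome. RB1 lies at 0.23 before and 0.53 after the removal, and CDKN2D at 0.22 before and −0.01 after it.

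The order of levels among the expressed genes was nearly the same in both genotypes. In KO, RB1 was followed by CDKN3, CDKN2C, CDKN1B and CDKN2D, and the libraries of neighbouring genes overlapped only for CDKN1B and CDKN2D. In WT the same order held, but the libraries of RB1 and CDKN3 overlapped as well. Over the 6 libraries the protein-coding gene whose log2(FPKM + 1) followed each of them most closely was CLN8 for CDKN1B (Pearson r = 0.998), TYW3 for CDKN3 (0.999), HUS1 for RB1 (0.993), IFT81 for CDKN2C (0.993) and DIXDC1 for CDKN2D (0.995). With 6 libraries that share 2 genotypes and a GC trend, these values describe the match and nothing further.

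Partner genes from 5 lists were counted beside the share over all genes tested, of which 43.4% were called, 21.0% higher and 22.4% lower in KO. Of 15 cyclins, kinases and related genes, not all of them targets of the inhibitors, 14 were tested. Of these 9 were lower, 0 higher and 5 not called, with a median log2 fold change of −0.35 against −0.01 over all genes tested. CDK6, a target of INK4 proteins, averaged 10.2 ± 0.8 FPKM in KO and 15.2 ± 1.3 FPKM in WT (limma adjusted p = 0.00235). CDK4, the other target, averaged 56.0 ± 4.9 FPKM in KO and 58.5 ± 6.0 FPKM in WT, and was not called (adjusted p = 0.647). CCND1, which encodes cyclin D1, stood at 123.2, 134.6 and 141.4 FPKM in the KO libraries, against 172.1, 171.5 and 169.6 FPKM in the WT libraries (adjusted p = 0.00528). CDK2, the main kinase bound by CIP/KIP proteins, averaged 15.7 ± 0.4 FPKM in KO and 18.7 ± 0.8 FPKM in WT (adjusted p = 0.0135). The phosphatase gene CDC25A, which activates CDK2, averaged 10.1 ± 0.6 FPKM in KO and 15.3 ± 1.0 FPKM in WT (adjusted p = 0.00102), and the mitotic kinase CDK1 averaged 14.1 ± 1.7 FPKM in KO and 26.9 ± 3.9 FPKM in WT. CCNE2, which encodes a cyclin E, averaged 1.26 ± 0.01 FPKM in KO and 2.27 ± 0.20 FPKM in WT. Of its exonic bases 37.0% overlap INTS8 on the opposite strand. CCNE1, another cyclin E gene, was not called, at 4.79 ± 0.33 FPKM in KO and 4.78 ± 0.18 FPKM in WT. With the GC and length trend removed, 8 were lower and 1 higher. CDK4 was then called lower (−0.24, adjusted p = 0.0338) and CDK7 higher (0.17, adjusted p = 0.0253). CCNE2 (adjusted p = 0.0856) and the cyclin gene CCNH (adjusted p = 0.215), lower as deposited, were not called. The CDK1 difference was −0.46, against −0.88 as deposited.

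A list of 19 genes held the RB family, the E2F and DP factors, the DREAM complex, FOXM1 and MYBL2. DREAM represses cell cycle genes in resting cells. Of the 18 tested, 10 were lower, FOXM1 among them, 2 higher and 6 not called, MYBL2 among them (median −0.22). Over all genes tested 22.4% were lower and 21.0% higher. RBL1, which encodes the RB relative p107, averaged 3.35 ± 0.28 FPKM in KO and 5.50 ± 0.54 FPKM in WT (limma adjusted p = 0.00211), and RBL2, which encodes p130, 5.52 ± 0.18 FPKM in KO and 6.85 ± 0.59 FPKM in WT (adjusted p = 0.0229). The DREAM subunit LIN9 averaged 2.79 ± 0.15 FPKM in KO and 5.00 ± 0.38 FPKM in WT (adjusted p = 0.000603), and LIN54, its DNA-binding subunit, 2.55 ± 0.11 FPKM in KO and 4.24 ± 0.31 FPKM in WT (adjusted p = 0.00109). The repressor E2F7 averaged 19.2 ± 0.9 FPKM in KO and 24.98 ± 0.59 FPKM in WT, while E2F1, the classic activator, was not called, at 28.1 ± 1.9 FPKM in KO and 29.3 ± 4.4 FPKM in WT (adjusted p = 0.759). The members that rose were TFDP1 and E2F5. TFDP1, an E2F dimer partner on chromosome 13 like RB1, averaged 119.4 ± 6.0 FPKM in KO and 93.7 ± 3.9 FPKM in WT. E2F5 averaged 1.22 ± 0.15 FPKM in KO and 0.79 ± 0.11 FPKM in WT, so it passed the filter only through KO. Of E2F5's exonic bases 16.3% overlap C8orf59 on the opposite strand. Without KO 1 the list had 7 calls, and without WT 1 also 7. With the GC and length trend removed, 11 were lower and 4 higher, E2F1 was called lower (−0.28, adjusted p = 0.0114) and RBL2 was not called (adjusted p = 0.227). The differences of RBL1 (−0.37, against −0.58 as deposited), LIN9 (−0.35, against −0.66), LIN54 (−0.30, against −0.56) and TFDP1 (0.22, against 0.35) were then smaller, and that of E2F5 larger (0.58, against 0.31).

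Of 20 replication genes that E2F factors are known to drive, 5 were lower, 1 higher and 14 not called (median −0.13), beside 43.4% called over all genes tested. RRM2, a subunit of ribonucleotide reductase, stood at 11.8, 16.7 and 18.6 FPKM in the KO libraries, against 25.2, 32.1 and 25.1 FPKM in the WT libraries (limma adjusted p = 0.00913). The checkpoint kinase CHEK1 averaged 6.36 ± 0.26 FPKM in KO and 7.77 ± 0.36 FPKM in WT, and the methylation maintenance factor UHRF1 26.3 ± 2.8 FPKM in KO and 34.9 ± 4.1 FPKM in WT. PCNA, the replication clamp and also a target of p53, was the member that rose, with 215.6 ± 12.5 FPKM in KO and 161.5 ± 12.7 FPKM in WT (adjusted p = 0.00588). Without KO 1, KO 2 or WT 1 the list had 3 calls each. With the GC and length trend removed, 7 were lower and 2 higher, though CHEK1 was not called (adjusted p = 0.243).

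Of 14 tested genes that control p27, 1 was lower, 2 higher and 11 not called (median 0.01), beside 43.4% called over all genes tested. The gene called lower was UHMK1, a kinase known to phosphorylate p27 and send it out of the nucleus, which stood at 11.4, 12.7 and 12.98 FPKM in the KO libraries, against 26.3, 26.7 and 22.9 FPKM in the WT libraries (log2 fold change −0.98, SE 0.08, limma adjusted p = 0.000188). FOXO1, a transcription factor known to activate CDKN1B, averaged 3.34 ± 0.41 FPKM in KO and 2.38 ± 0.12 FPKM in WT, and its relative FOXO4 2.41 ± 0.23 FPKM in KO and 1.59 ± 0.42 FPKM in WT. SKP2, which targets p27 for degradation, averaged 19.5 ± 1.6 FPKM in KO and 22.3 ± 2.1 FPKM in WT and was not called (adjusted p = 0.144). Without WT 1 the list had 1 call. With the GC and length trend removed, it again had 1 lower and 2 higher, but FOXO4 was not called (adjusted p = 0.130) and SKP1, a subunit of the SKP2 ubiquitin ligase, was called higher (0.30, adjusted p = 0.0301). The UHMK1 difference was then −0.56.

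In the metabolism around MTAP, 15 genes of methionine salvage, polyamine synthesis and the PRMT5 complex gave 4 lower, 2 higher and 9 not called (median −0.12), a share called close to the 43.4% over all genes tested. MAT2A, which makes S-adenosylmethionine, stood at 41.6, 48.2 and 46.5 FPKM in the KO libraries, against 80.6, 84.4 and 77.5 FPKM in the WT libraries (log2 fold change −0.82, SE 0.07, limma adjusted p = 0.000255). ODC1, the first enzyme of polyamine synthesis, averaged 175.8 ± 16.8 FPKM in KO and 252.7 ± 16.0 FPKM in WT (adjusted p = 0.00355). AHCY, which clears S-adenosylhomocysteine, was higher, with 106.6 ± 7.6 FPKM in KO and 66.0 ± 3.0 FPKM in WT (adjusted p = 0.000519). Of the enzymes downstream of MTAP in the salvage route, MRI1 averaged 11.9 ± 0.5 FPKM in KO and 9.56 ± 0.94 FPKM in WT and was called higher (adjusted p = 0.0193), and ADI1, the last before methionine is reformed by transamination, 13.1 ± 1.9 FPKM in KO and 16.6 ± 0.5 FPKM in WT and was called lower (adjusted p = 0.0338). PRMT5, an arginine methyltransferase inhibited by the methylthioadenosine that builds up without MTAP, averaged 26.0 ± 1.6 FPKM in KO and 24.3 ± 1.7 FPKM in WT and was not called (adjusted p = 0.348), while its partner RIOK1 averaged 12.7 ± 0.2 FPKM in KO and 15.5 ± 0.8 FPKM in WT (adjusted p = 0.0105). Without WT 1 the list had 3 calls. With the GC and length trend removed, 4 were lower and 1 higher. MRI1 (adjusted p = 0.340) and RIOK1 (adjusted p = 0.0679) were then not called, and the spermine synthase gene SMS was called lower (−0.23, adjusted p = 0.00894).

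**Figure D4:**
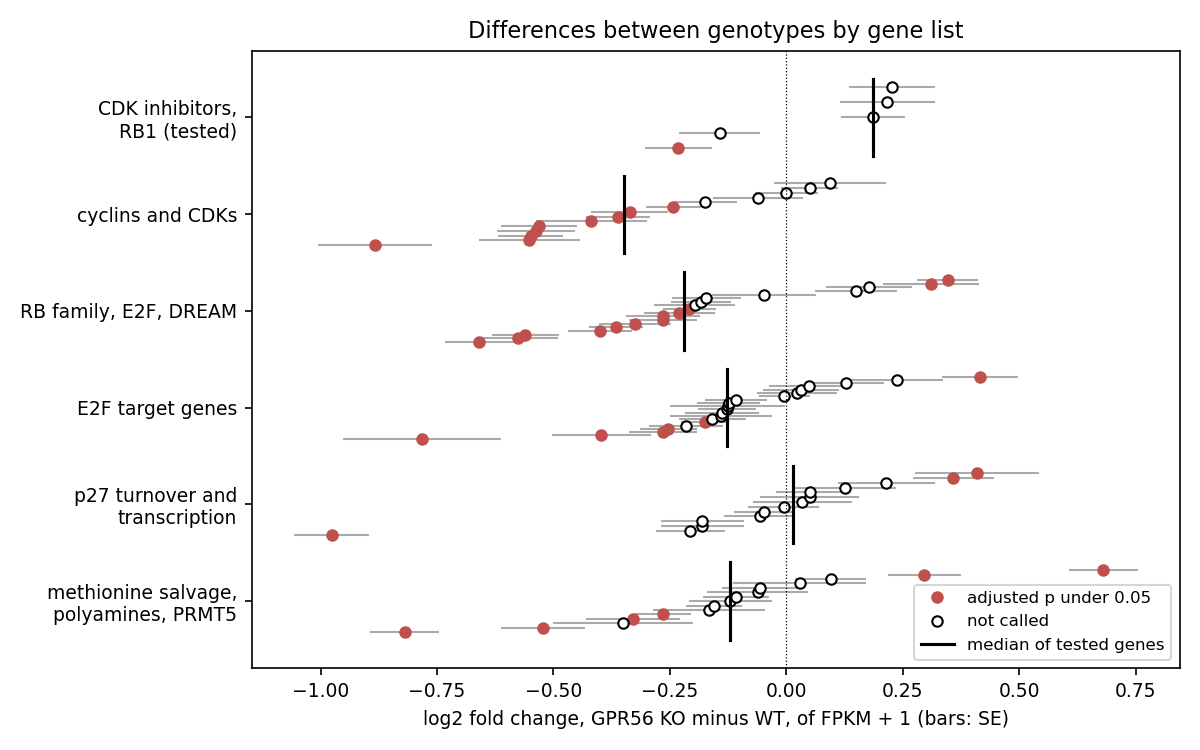
Log2 fold change (KO minus WT, of FPKM + 1; horizontal axis) of each tested gene in 6 lists, with its SE. Filled red points have an adjusted p under 0.05, open points were not called, and the vertical bars mark list medians, from −0.35 for cyclins and CDKs to 0.19 for the 5 tested CDK inhibitors and RB1.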

How the data were processed

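The authors deposited 1 table of FPKM values per gene, with gene length; per the labels' protocols, a SMARTER kit for mRNA served for the libraries. Which aligner and counter were used is not given in the sources used here. Mouse builds stand in the submitters' processing notes, but IDs, starts, ends and strands of 58735 of 58735 genes equal the human GENCODE release 29 on GRCh38.

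FPKM times gene length stepped in whole reads (tolerance 0.02 reads), from which reads were recovered. Limma 3.58.1 in R 4.3.3 (lmFit, eBayes with trend) was run two-sided on log2(FPKM + 1), a scale that understates changes of low genes, for the 12000 genes averaging at least 1 FPKM, all 6 libraries, genotype the only term and Benjamini-Hochberg adjustment. Fold changes are KO minus WT. The fit was also run on simulated counts. These held no trend with GC content or length, so that run cannot speak to the trend found here. Counts of same-genotype libraries differed beyond sampling noise (chi-square divided by its degrees of freedom, 4.92 to 16.5), so none was a copy. The trend with GC content and length was removed per library by loess (span 0.3).

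Members and lists were chosen with earlier results of these data known. Named were all members, fixed partners and neighbours, up to 4 genes per list by adjusted p, and the closest correlate of each tested member. Genes past the 4 per list, CCNE1, CDK7, MYBL2, SKP1, SMS, KLHL9 and the other unexpressed locus genes were named after their values were seen. Some neighbours under this rule are not reported here. Promoter sequences are RefSeq, GRCh38.p14, where 8 of the 9 members matched and CDKN1C did not. RB1 had only a start within its annotated gene, and so had CDKN1B. The starts printed for CDKN2C and CDKN3 also lay within the annotated gene.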

Additional observations from a re-analysis of the deposited data

How the results depend on the processing

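The number of tested members called (1 as reported) was 2 under quantile normalization, 3 after the GC and length correction, 0 with the replicate number as a block, 2 with the replicate block and that correction, 2 by limma-voom on recovered reads and 2 by limma-voom with a mean of at least 5 reads (both limma-voom fits were chosen after seeing the data). It ranged from 0 to 2 with a library left out. CDKN3 (−0.23) lost its call with no filter (−0.23), with the replicate block (−0.23), with the block and correction (−0.13), and by limma-voom with a mean of at least 5 reads (−0.25), and ranged from −0.29 to −0.19 with a library left out. RB1 (0.23) was called after the correction (0.53, with and without the replicate block) and by limma-voom (0.24 in both fits), with a left-out range of 0.15 to 0.31. CDKN2C (−0.14) was called after the correction, with and without the block (−0.31), and ranged from −0.21 to −0.08. CDKN1B was called under quantile normalization (0.21) and ranged from 0.16 to 0.23. CDKN2D turned to −0.0062 after the correction, with and without the block, and otherwise ranged from 0.13 to 0.30 with a library left out. The filter at a mean FPKM of 5, which tests fewer genes, gave 3203 calls in all (5207 as reported), 7 for the RB and E2F list and 1 for p27 control. Left-out ranges were 3789 to 5372 calls over all genes, 7 to 10 for the RB and E2F list, 3 to 6 for E2F targets, 1 to 4 for p27 control and 3 to 7 for the methionine list; the cyclin list held 7 to 10. The cause of the other changes was not tested. Same-numbered KO and WT libraries did not deviate together (correlations of −0.07, −0.18 and −0.35). Differently numbered libraries gave −0.21 (KO 1 with WT 2) to 0.37 (KO 3 with WT 2). Such deviations also carry the GC trend of each library, so they cannot settle whether the samples were paired. With the block 3866 genes were called. Count models with their own normalization factors were not run, because the deposited unit is FPKM. At this depth CDKN2A and CDKN2B allow no comparison, and MTAP only one with a wide interval.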
